A study of Mus musculus with 20 samples.

Results

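Schwann cells wrap the peripheral axons of the spiral ganglion neurons, and the genes that build this myelin were examined in bulk RNA-seq of the mouse cochlear apex. The 8 genes were *Pmp22*, *Mbp*, *Mag*, *Prx*, *Egr2*, *Sox10*, *Ncmap* and *Mal*, taken by name from the 24411 genes of each count table. All 8 were found and all 8 passed the filters on low values in every comparison. Control mice were heterozygous (*Bai1*tm2b/+) and mutants were littermates homozygous for the same allele (*Bai1*tm2b/tm2b), both on the C57BL/6N background and both carrying the *Cdh23*ahl allele. In the tm2b allele, exons 3 and 4 of *Adgrb1*, the gene for the adhesion receptor BAI1, are missing in every cell and a lacZ cassette remains in their place, so the controls also carry 1 such allele and no wild-type group was analysed here. At postnatal day (P) 22 there were 3 control and 3 *Bai1*tm2b/tm2b libraries. At P7 there were 7 of each genotype, of which replicates 5 to 7 hold counts and replicates 1 to 4 hold TPM rounded to whole numbers. The labels give no batch per sample, and these sets were taken as the P7 batches of 3 and 4 replicates that the study describes. Each library was 1 pool of sensory epithelium and spiral ganglion from 4 mice, so p values measure the spread between pools.

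Myelin is a stack of glial membrane that insulates an axon and speeds conduction. In Schwann cells the transcription factor SOX10 holds glial identity, and together with EGR2 (KROX20) it switches on the genes for the compact sheath and its lipids, after the axonal ligand neuregulin-1 has signalled through ERBB receptors. MBP, MAG, MAL and SOX10 are also products of oligodendrocytes, the myelinating glia of the brain, which take over from Schwann cells along the auditory nerve, whereas PMP22, periaxin and NCMAP belong mainly to peripheral myelin. In bulk tissue, fewer cells of a type and less RNA per cell cannot be told apart.

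The libraries in counts summed to 3.57e+07 to 4.04e+07 estimated counts at P22 and to 3.11e+07 to 5.88e+07 estimated counts at P7, and the depth of the libraries in TPM is unknown. *Adgrb1* counts, which pool all transcripts of the gene, were lower in *Bai1*tm2b/tm2b by a log2 fold change of -0.61 ± 0.0585 (SE, adjusted p = 0.000602) at P22. The value was -0.64 ± 0.227 in the P7 counts (adjusted p = 0.894) and 0.02 ± 0.130 in the P7 TPM (adjusted p = 0.934). Markers of spiral ganglion neurons, hair cells and supporting cells were detected in every set, with none of these genes at 0 in any library.

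The EGR2 motif and the SOX motif, the letter patterns that these transcription factors are known to read, were searched in the 250 bases before each RefSeq transcription start (GRCm38.p6), since the genes are known to share these regulators. Of the 8 genes, 6 had windows in the table, 16 windows in all, and *Mbp* and *Sox10* had none. The EGR letters GTGGGNG, on either strand, lay in 4 of the 16 windows, 1 each of *Mag*, *Prx*, *Egr2* and *Ncmap*. They lay in 28.1% of all 32851 windows. The SOX letters ACAAAG lay in overlapping windows of 1 gene (*Mag*) and in 16.5% of all windows. A gene with several windows has more places for a match, so counts of genes cannot be set against shares of windows. The variant ACAATG and the TATA box TATAAA, held by 10.7% and 12.4% of all windows, were in none of the 16. *Pmp22* and *Mal* windows held none of the 4 motifs. The 3 windows printed here belong to the peripheral genes *Prx* and *Ncmap*, with the EGR letters in capitals, and to *Mag*, with the SOX letters in capitals. A motif on the minus strand appears as its reverse complement. Each is written 5′ to 3′ on the strand of its gene, at chr7:27499074-27499323 (+) for *Prx*, chr4:135398228-135398477 (-) for *Ncmap* and chr7:30914923-30915172 (-) for *Mag*.
Prx: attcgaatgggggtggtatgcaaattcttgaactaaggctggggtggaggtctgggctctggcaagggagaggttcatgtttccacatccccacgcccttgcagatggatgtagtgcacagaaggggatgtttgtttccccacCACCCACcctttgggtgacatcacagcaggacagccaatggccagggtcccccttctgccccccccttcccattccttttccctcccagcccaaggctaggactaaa
Ncmap: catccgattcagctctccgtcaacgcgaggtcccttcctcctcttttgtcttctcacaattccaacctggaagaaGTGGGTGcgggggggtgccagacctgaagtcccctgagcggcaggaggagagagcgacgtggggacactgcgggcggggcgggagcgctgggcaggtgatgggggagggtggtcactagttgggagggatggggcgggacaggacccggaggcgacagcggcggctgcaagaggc
Mag: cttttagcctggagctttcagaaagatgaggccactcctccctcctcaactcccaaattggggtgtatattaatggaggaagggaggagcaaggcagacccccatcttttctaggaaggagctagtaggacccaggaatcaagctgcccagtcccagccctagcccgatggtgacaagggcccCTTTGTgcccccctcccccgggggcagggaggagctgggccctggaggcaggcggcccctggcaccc
The capitals begin 107 bases before the start of *Prx*, 175 before that of *Ncmap* and 67 before that of *Mag*. These are letter matches, and no binding was measured in this series.

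In the GRCm38 annotation, the protein-coding genes lie at chr11:63128982-63159547 (*Pmp22*), chr7:30899176-30914873 (*Mag*), chr7:27499324-27520214 (*Prx*), chr10:67535475-67542188 (*Egr2*), chr15:79154908-79165240 (*Sox10*), chr4:135369576-135398227 (*Ncmap*), chr2:127633226-127656695 (*Mal*) and chr18:82475146-82585637 (*Mbp*).

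Levels can be compared between genes only per transcript length, which the P7 TPM allow. After scaling the libraries by TMM, *Mbp*, whose product joins the cytoplasmic faces of compact myelin, was the most abundant of the 8, with a mean of 4867 ± 1009 TPM (SD, n = 8). *Pmp22*, a membrane protein of compact peripheral myelin, followed with 2842 ± 633 TPM. *Prx*, the scaffold that links the Schwann cell membrane to the basal lamina, had 425 ± 94.4 TPM, and *Mal*, a raft protein of myelin membranes, had 345 ± 69.9 TPM. The transcription factor *Sox10* (200 ± 30.0 TPM) and *Mag* (189 ± 40.6 TPM), an adhesion protein of the membrane next to the axon, did not differ beyond their spread, with *Sox10* above *Mag* in 4 of 8 libraries. *Ncmap*, a small membrane protein of non-compact peripheral myelin, had 150 ± 35.1 TPM, and *Egr2* was lowest with 44.6 ± 8.26 TPM. The ranges of neighbours in this order overlapped except between *Pmp22* and *Prx* and between *Ncmap* and *Egr2*, although *Mbp* was above *Pmp22* in 8 of 8 libraries.

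**Figure D1:**
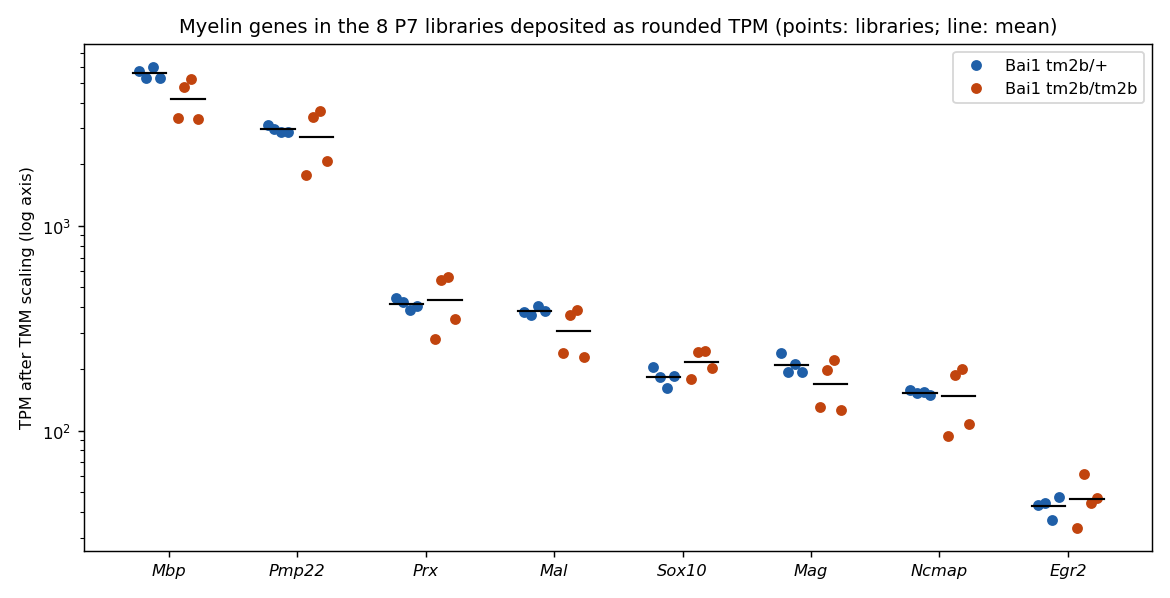
TPM after TMM scaling (log axis) of the 8 genes, ordered by mean, in the 4 control and 4 *Bai1*tm2b/tm2b P7 libraries deposited as rounded TPM; points are libraries and lines are group means. Control points lie close together, while the homozygous points spread more for all 8 genes, from 1779 to 3652 TPM for *Pmp22*.

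The first comparison asked whether the myelin genes differed between genotypes after the age of hearing onset. At P22 *Mbp* was higher in *Bai1*tm2b/tm2b, and it was the only one of the 8 genes to pass the test (1 of 8, against 3.15% of the 15443 genes tested). The groups did not overlap for 3 of the 8 (*Mbp*, *Pmp22* and *Ncmap*), which was true of 33.7% of all genes tested. The median log2 fold change of the 8 was 0.00, against 0.01 for all genes. A call required an adjusted p under 0.05, a log2 fold change beyond 0.5 in either direction and an SE under 0.5.

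*Mbp* stood at 4832, 5002 and 4742 CPM (counts scaled to library size, on 1 scale for all 12 libraries in counts) in the 3 control libraries and at 7174, 8037 and 5881 CPM in the homozygous ones. Every homozygous library lay above every control library. The log2 fold change was 0.54 ± 0.102 (SE, adjusted p = 0.00892). Without homozygous replicate 2, the highest library, it was 0.44 (adjusted p = 0.0273) and no longer reached the size required for a call. An exact permutation test gave p = 0.1, the smallest that 3 against 3 libraries allow.

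*Mag* had 226, 236 and 198 CPM in the controls and 291, 301 and 216 CPM in *Bai1*tm2b/tm2b. The groups overlapped through homozygous replicate 3, which was also the lowest homozygous library for *Mbp*. The difference of 0.30 ± 0.112 on the log2 scale did not pass (adjusted p = 0.102). *Mal* and *Sox10* differed by 0.10 ± 0.0654 and 0.09 ± 0.0667, with adjusted p values of 0.369 and 0.411.

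Among the 8, the genes that belong mainly to peripheral myelin had values on the other side of 0, and none passed the test. Other Schwann cell genes did not share this direction. The 8 adhesion, node and basal lamina genes had 4 values above 0 and 4 below, with a median of -0.01. *Pmp22* stood at 2357, 2345 and 2225 CPM in the controls and at 2057, 2042 and 2045 CPM in *Bai1*tm2b/tm2b. The homozygous libraries were all lower, and the difference was -0.17 ± 0.0590 (adjusted p = 0.0926). *Ncmap* stood at 189, 190 and 188 CPM against 184, 170 and 159 CPM, a difference of -0.14 ± 0.0612 (adjusted p = 0.166). The groups did not overlap for this gene either. *Prx* (-0.10 ± 0.0748, adjusted p = 0.424) and the regulator *Egr2* (-0.10 ± 0.0669, adjusted p = 0.381) had overlapping groups.

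Within a library, the ratio of the *Mbp* count to the *Pmp22* count needs no scaling between libraries. At P22 it was 2.05, 2.13 and 2.13 in the controls and 3.49, 3.94 and 2.88 in *Bai1*tm2b/tm2b. The homozygous libraries were all higher, which follows from their levels, since *Mbp* was higher and *Pmp22* lower in each of them. The ratios of *Mag*, *Mal* and *Sox10* to *Pmp22* did not overlap between genotypes either. The levels of these genes did overlap, and *Pmp22*, the denominator of each ratio, was lower in every homozygous library. The share of all genes whose ratio to *Pmp22* does not overlap was not computed. The *Mal* ratio was 0.293 to 0.323 in the controls and 0.333 to 0.389 in *Bai1*tm2b/tm2b. The *Sox10* ratio was 0.134 to 0.142 against 0.155 to 0.176. The ratios of *Prx*, *Ncmap* and *Egr2* overlapped. Markers of oligodendrocytes were also higher in *Bai1*tm2b/tm2b. A set of 7 oligodendrocyte genes (*Mog*, *Mobp*, *Olig1*, *Olig2*, *Opalin*, *Hapln2* and *Ermn*) summed to 368, 391 and 410 CPM in the controls and to 721, 832 and 488 CPM in homozygous replicates 1, 2 and 3, the same order as for *Mbp*. None of the 7 was at 0 in any library in counts.

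Of these 7 genes, 6 were called higher in *Bai1*tm2b/tm2b. *Mobp*, a protein of central compact myelin, rose by 0.92 ± 0.161 on the log2 scale (adjusted p = 0.00689), and *Mog*, on the outer face of central myelin, rose by 0.67 ± 0.135 (adjusted p = 0.0123). The oligodendrocyte regulators *Olig1* and *Olig2* rose by 0.69 ± 0.173 and 0.86 ± 0.229, with adjusted p values of 0.0283 and 0.0362. *Hapln2*, a linker protein of nodal matrix, and *Ermn*, a cytoskeletal protein of oligodendrocytes, rose by 0.82 ± 0.127 and 0.58 ± 0.146 (adjusted p = 0.00439 and 0.0290). *Opalin* had 1.09 ± 0.522 and did not pass (adjusted p = 0.198). The count of 6 fell to 2 without control replicate 1, without control replicate 3 or without homozygous replicate 2, and to 3 without homozygous replicate 1. *Mobp* and *Hapln2* were called each time. The part of these cells in the *Mbp* difference was not tested.

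**Figure D2:**
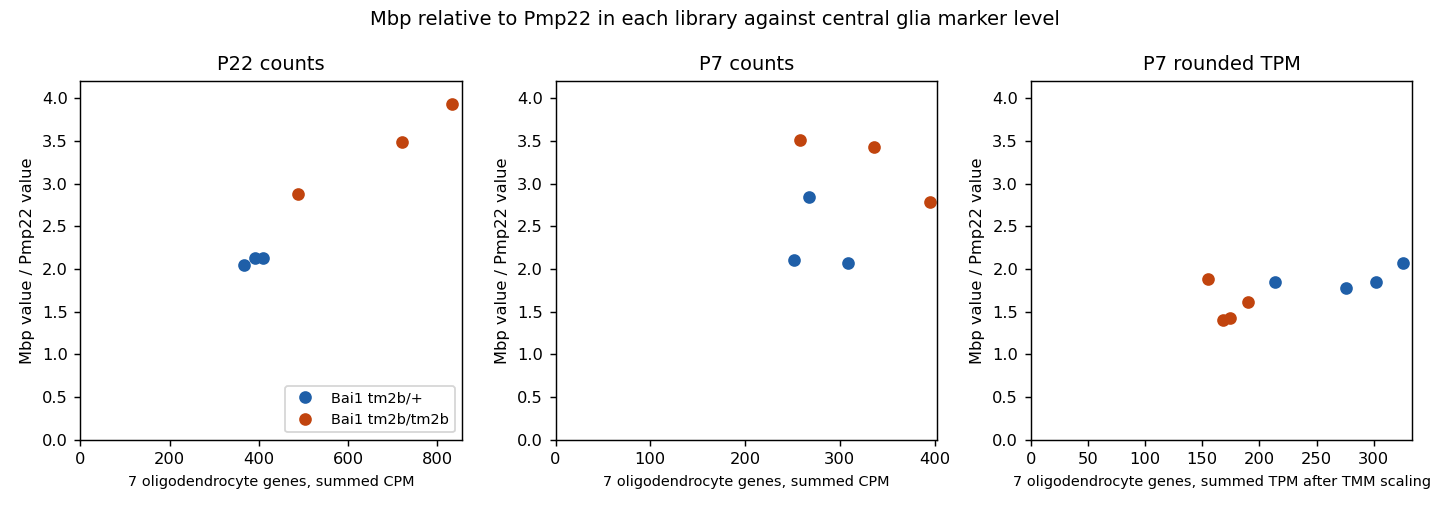
Ratio of the *Mbp* value to the *Pmp22* value (vertical axis) against the summed level of 7 oligodendrocyte genes (horizontal axis) in each library, by genotype, for P22 counts, P7 counts and P7 TPM. At P22 the 3 homozygous libraries lie at 2.88 to 3.94 and the controls at 2.05 to 2.13, and the homozygous points also lie farther right. At P7 the ratios run from 2.07 to 3.51 in counts and from 1.40 to 2.07 in TPM.

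Markers of other cell types moved too. Summed astrocyte markers ranged from 517 to 659 CPM in the controls and from 708 to 1088 CPM in *Bai1*tm2b/tm2b at P22, with *Gfap*, an intermediate filament of astrocytes and of some Schwann cells, called higher (0.79 ± 0.155, adjusted p = 0.0109) as 1 of 6. Summed neuron markers ranged from 14772 to 16769 CPM in the controls and from 11095 to 12667 CPM in *Bai1*tm2b/tm2b, with *Nefh*, a neurofilament subunit, called lower (-0.52 ± 0.0850, adjusted p = 0.00505) as 1 of 10. Without control replicate 3 or homozygous replicate 2, *Nefh* was at -0.47 and -0.46 and not called. Summed hair cell markers were 425 to 445 CPM against 533 to 632 CPM, with 2 of 8 called higher, and supporting cell markers 1459 to 1640 CPM against 1785 to 1989 CPM, with 3 of 7 called higher. Of these, *Otof* was not called without control replicate 3 (0.50) or homozygous replicate 3 (0.40), nor *Epyc* without control replicate 1 (0.39) or homozygous replicate 3 (0.40). The part of these shifts in the values of the 8 genes was not tested.

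Among 14 other myelin proteins, 3 were called higher at P22 and 0 lower (median 0.13, against 0.01 for all genes). These were *Mobp*, *Mog* and *Cldn11*, the tight junction claudin of central myelin (0.58 ± 0.116, adjusted p = 0.0118), which was at 0.47 and not called without homozygous replicate 2.

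Along the pathway upstream of myelin, 1 of 9 ligands and receptors was called at P22. This was *Nrg1*, the neuregulin that axons present to Schwann cells, which was lower in *Bai1*tm2b/tm2b (-0.59 ± 0.0921, adjusted p = 0.00463) but not called without control replicate 3 (-0.50). Its receptor gene *Erbb3* had -0.01 ± 0.0812 (adjusted p = 0.955). Of 9 regulators that promote myelination and 9 of the immature or repair state, edgeR called 0 in either list. 0 of the first list and 2 of the second had an unadjusted p under 0.05. *Sox2*, a regulator of immature Schwann cells, had 0.35 ± 0.0837 (adjusted p = 0.0231), under the size required. Among 6 myelin lipid enzymes, 1 was called higher, *Aspa*, which releases acetate for myelin lipids (0.63 ± 0.0740, adjusted p = 0.00132). Of 11 genes of immature and non-myelinating Schwann cells and satellite glia, 2 were called higher, *Gfap* and *Fabp7*, a fatty acid binding protein of immature glia (0.74 ± 0.125, adjusted p = 0.00560). None of 8 adhesion, node and basal lamina genes and none of 7 demyelinating neuropathy genes was called by edgeR, with 4 and 2 of them at an unadjusted p under 0.05.

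Before hearing onset, at P7, none of the 8 genes was called in either batch. In the P7 counts (3 against 3 libraries) edgeR called 0 of 16026 genes (0%), 763 had an unadjusted p under 0.05, and DESeq2 called 48, none of them among the 8. The log2 fold changes of the 8 ran from -0.70 to -0.07 with a median of -0.49, against 0.00 for all genes. Their smallest adjusted p was 0.894, and 0 of the 8 had an unadjusted p under 0.05 with edgeR and 1, *Mal*, with DESeq2. The groups overlapped for every one of the 8, whereas 10.4% of all genes did not overlap.

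None of the other Schwann cell and myelin lists had a gene called in these libraries by edgeR, with 0 to 3 genes a list at an unadjusted p under 0.05.

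The size of these negative values turned on 2 libraries. *Pmp22* stood at 1014, 2047 and 1594 CPM in control replicates 5, 6 and 7, and at 1085, 517 and 1198 CPM in the homozygous ones. Control replicate 6 was the highest control and homozygous replicate 6 the lowest homozygous library for 8 of 8 genes. *Mbp* stood at 2885, 4227 and 3347 CPM against 3723, 1813 and 3332 CPM. For all 8 genes, homozygous replicates 5 and 7 lay within the range of the controls. When both replicates 6 were left out, an alternative chosen after the levels were seen, 5 of the 8 values turned positive, with *Mbp* at 0.22 and *Pmp22* at -0.15. Without homozygous replicate 6 alone, *Mbp* was at 0.05.

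The ratio of *Mbp* to *Pmp22* was 2.84, 2.07 and 2.10 in these P7 controls and 3.43, 3.51 and 2.78 in *Bai1*tm2b/tm2b. The groups overlapped through control replicate 5. The 7 oligodendrocyte genes summed to 268, 309 and 252 CPM in the controls and to 336, 258 and 396 CPM in *Bai1*tm2b/tm2b, with 0 of 7 called by edgeR. Here the homozygous library with the highest ratio, replicate 6 (3.51), had the lowest summed level.

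In the P7 TPM (4 against 4 libraries), limma called 95 of 11740 genes (0.809%) and none of the 8 genes, of which 2 had an unadjusted p under 0.05. The groups did not overlap for 1 of the 8, *Mbp*, and for 18.2% of all genes. *Mbp* stood at 5726, 5292, 5966 and 5282 TPM in the controls and at 3350, 4789, 5213 and 3315 TPM in *Bai1*tm2b/tm2b. The homozygous libraries were all lower, opposite to P22. The difference of -0.45 ± 0.158 on the log2(TPM + 1) scale did not pass (adjusted p = 0.0834), and the exact permutation p was 0.0286, the smallest that 4 against 4 allow. In the TPM as deposited, without TMM scaling, the groups overlapped (3406 to 5326 against 4803 to 5796 TPM) and the exact permutation p was 0.143.

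*Mal* (-0.37 ± 0.162, adjusted p = 0.135) and *Mag* (-0.35 ± 0.171, adjusted p = 0.172) were also lower on average, with overlapping groups. *Pmp22* stood at 3091, 2981, 2886 and 2868 TPM in the controls and at 1779, 3416, 3652 and 2063 TPM in *Bai1*tm2b/tm2b. Homozygous replicates 1 and 4 were the lowest of their group for 7 of the 8 genes (all but *Egr2*), and replicates 2 and 3 lay above every control for *Pmp22*. The difference was -0.18 ± 0.212 (adjusted p = 0.559). *Sox10* had 0.24 ± 0.109 (adjusted p = 0.150), and *Ncmap*, *Egr2* and *Prx* lay between -0.13 and 0.08.

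The oligodendrocyte genes lay on the low side in this batch. The 7 genes summed to 302, 276, 325 and 213 TPM in the controls and to 155, 168, 174 and 190 TPM in *Bai1*tm2b/tm2b. The groups did not overlap after TMM scaling, and as deposited they overlapped through control replicate 4 (194 TPM) and homozygous replicate 4 (204 TPM). Of the 4 that passed the filter, 2 were called lower, *Mobp* (-0.90 ± 0.183, adjusted p = 0.0436) and *Mog* (-0.84 ± 0.206, adjusted p = 0.0452). With a minimum mean of 1 TPM in place of 5, limma called 0 genes of the whole table, and *Mobp* was at -0.91 (adjusted p = 0.0616). Any single library left out, other than homozygous replicate 1, also lost 1 or both calls. The ratio of *Mbp* to *Pmp22* was 1.85, 1.78, 2.07 and 1.84 in the controls and 1.88, 1.40, 1.43 and 1.61 in *Bai1*tm2b/tm2b, with overlap through homozygous replicate 1. Of the Schwann cell and myelin lists, *Lama2*, a basal lamina laminin (0.59 ± 0.134, adjusted p = 0.0439), and *L1cam*, an adhesion molecule of axons and non-myelinating Schwann cells (0.89 ± 0.179, adjusted p = 0.0436), were called higher. The part of oligodendrocytes in the *Mbp* values at P7 was not tested.

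**Figure D3:**
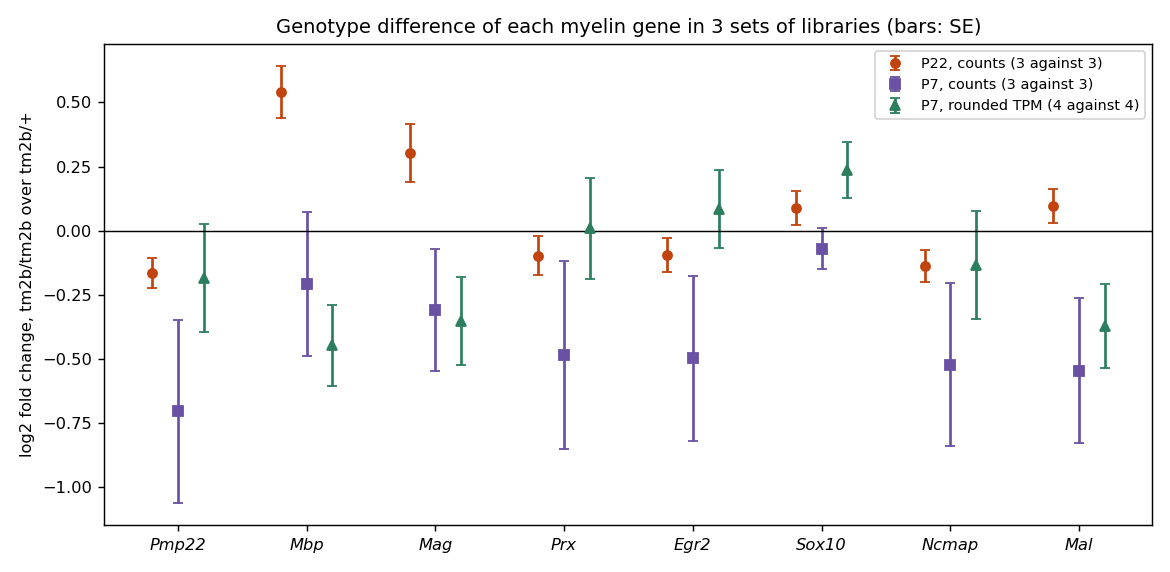
Log2 fold change of *Bai1*tm2b/tm2b over *Bai1*tm2b/+ (vertical axis, bars are SE) for the 8 genes at P22 (counts), P7 (counts) and P7 (TPM). *Mbp* is at 0.54 at P22 and at -0.21 and -0.45 in the P7 batches, and the P7 counts have the widest bars.

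Whether the genotype difference itself differed between the ages was tested in a fit over all 12 libraries in counts. The difference at P22 minus that at P7 was positive for all 8 genes, from 0.18 for *Sox10* to 0.77 ± 0.328 for *Mbp*, and none was called (*Mbp* adjusted p = 0.447). edgeR called 5 of 16314 genes (0.0306%), and 2 of the 8 genes had an unadjusted p under 0.05 (*Mbp* and *Mag*). DESeq2 called none of the 8. Without both replicates 6 of P7, the values of *Prx*, *Egr2* and *Ncmap* turned negative, and that of *Mbp* fell to 0.35.

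The genotype differences in each pair of sets were also compared by an exact permutation of the genotype labels within each set, for 8 genes and 3 pairs, an addition made after the values were seen. *Mbp* at P22 against the P7 TPM was the 1 of 24 tests that passed. Its log2 difference was 0.53 at P22 and -0.45 in the P7 TPM, which is 0.97 apart (exact p = 0.00143, the smallest of 1400 relabelings, adjusted p = 0.0343). With the TPM as deposited, the gap was 0.86 and the adjusted p, from the same exact permutation, was 0.171. Against the P7 counts the gap for *Mbp* was 0.79 (exact permutation p = 0.06, adjusted p = 0.274). Age, batch and unit differ together between these sets and cannot be told apart.

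Levels were then compared between ages within each genotype, over the 12 libraries in counts. Age coincided with the table and with the batch as assigned here, so that these cannot be told apart. Dissection batch and sequencing run are not given per sample. In controls 4 of the 8 genes were called higher at P22 and 0 lower, where 24.8% of 16314 genes were called higher. In *Bai1*tm2b/tm2b 7 of 8 were called higher and 0 lower, where 24.2% of genes were called higher. Of all 16314 genes, 4404 were called lower in controls and 4098 in *Bai1*tm2b/tm2b. The medians of the 8 were 0.70 and 1.25 on the log2 scale, against -0.06 and -0.04 for all genes.

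*Mal* had the largest difference. It stood at 217, 348 and 284 CPM in P7 controls and at 699, 687 and 718 CPM in P22 controls, a log2 difference of 1.31 ± 0.226 (adjusted p = 0.000191). In *Bai1*tm2b/tm2b it went from 221, 116 and 234 CPM to 760, 795 and 682 CPM, a difference of 1.97 ± 0.231 (adjusted p = 6.99e-06). No P7 library reached a P22 library in either genotype. *Ncmap* was close behind, with 54.2, 99.1 and 79.9 CPM in P7 controls against 189, 190 and 188 CPM at P22 (1.28 ± 0.247, adjusted p = 0.000464). In *Bai1*tm2b/tm2b *Ncmap* rose by 1.69 ± 0.251 (adjusted p = 5.67e-05).

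*Prx* rose in both genotypes, by 0.90 ± 0.286 in controls (adjusted p = 0.0129) and by 1.31 ± 0.289 in *Bai1*tm2b/tm2b (adjusted p = 0.00128). *Egr2* stood at 32.7, 62.3 and 45.3 CPM in P7 controls and at 88.4, 81.7 and 80.1 CPM at P22, a rise of 0.83 ± 0.246 (adjusted p = 0.00847). Its rise in *Bai1*tm2b/tm2b was 1.26 ± 0.249 (adjusted p = 0.000589). When libraries were scaled by total counts alone, which moved the median of all genes from -0.06 to -0.35 in controls, *Prx* (0.61) and *Egr2* (0.54) were no longer called there. *Prx* was also not called in controls without control replicate 5 of P7 (0.70, adjusted p = 0.0532).

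*Mbp*, *Pmp22* and *Mag* passed in *Bai1*tm2b/tm2b alone, a contrast that the test of the genotype difference between ages did not call. In controls *Mbp* had 0.48 ± 0.232 (adjusted p = 0.0805), *Pmp22* had 0.57 ± 0.278 (adjusted p = 0.0804) and *Mag* had 0.09 ± 0.206 (adjusted p = 0.720). Every P22 control still lay above every P7 control for *Mbp* (4742 to 5002 against 2885 to 4227 CPM). The same held for *Pmp22* (2225 to 2357 against 1014 to 2047 CPM), whereas the ages overlapped for *Mag*. The share of all genes separated by age was not computed. In *Bai1*tm2b/tm2b the rises were 1.25 ± 0.235 for *Mbp* (adjusted p = 0.000393), 1.13 ± 0.280 for *Pmp22* (adjusted p = 0.00289) and 0.72 ± 0.207 for *Mag* (adjusted p = 0.00737). Without both replicates 6 of P7, *Pmp22* (0.82) and *Mbp* (0.64) were called in controls too, and the count there became 6 of 8. Under scaling by total counts, *Mag* was at -0.21 in controls and at 0.43 (adjusted p = 0.0800), no longer called, in *Bai1*tm2b/tm2b.

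*Sox10* was the 1 of the 8 with a negative difference in both genotypes. It stood at 356, 397 and 391 CPM in P7 controls and at 334, 326 and 298 CPM in P22 controls. The difference of -0.25 ± 0.0819 (adjusted p = 0.0138) was smaller than a call required, and under scaling by total counts it was -0.55 and called. In *Bai1*tm2b/tm2b it was -0.08 ± 0.0819 (adjusted p = 0.407), with overlapping ages.

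**Figure D4:**
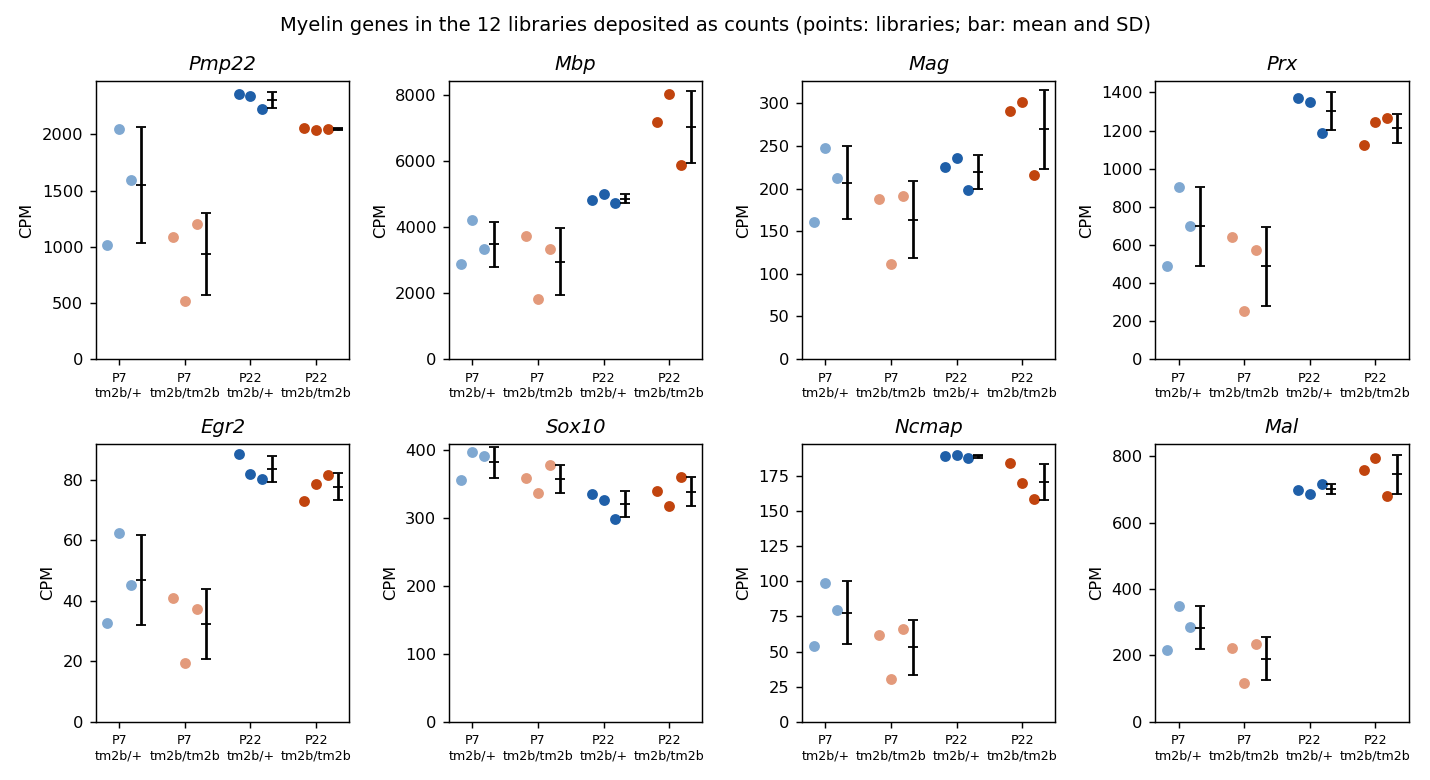
CPM of the 8 genes in the 12 libraries deposited as counts, by age and genotype; points are libraries and bars are mean and SD (n = 3). *Mal*, *Ncmap*, *Pmp22*, *Mbp*, *Prx* and *Egr2* are separated by age in both genotypes. The ages overlap for *Mag* in controls and for *Sox10* in *Bai1*tm2b/tm2b. *Mbp* is highest in homozygous P22 libraries (5881 to 8037 CPM), and *Sox10* stays between 298 and 397 CPM.

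**Figure D5:**
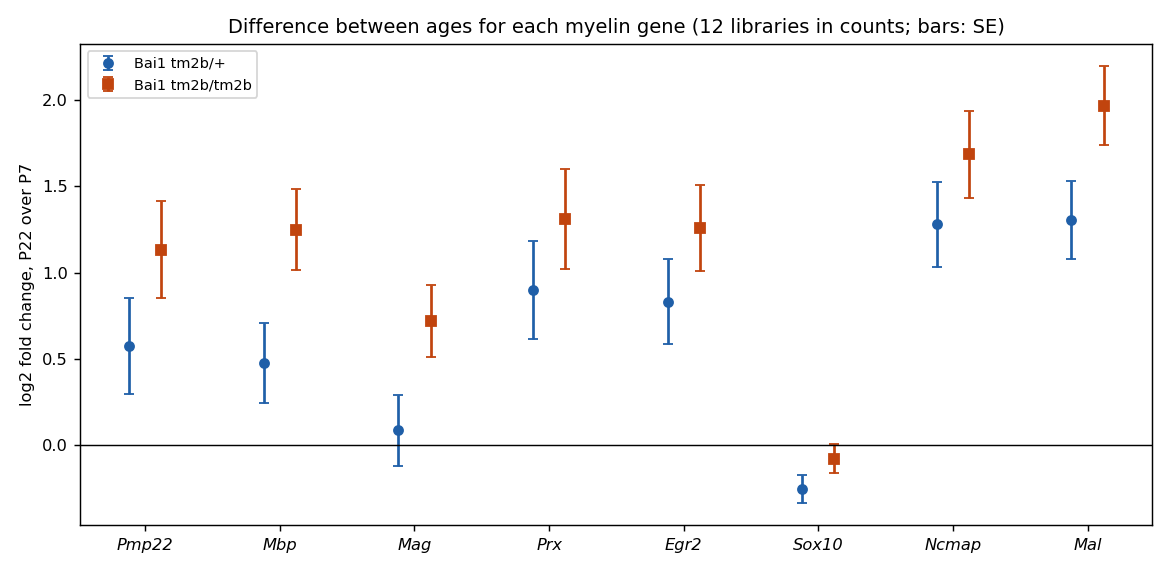
Log2 fold change of P22 over P7 (vertical axis, bars are SE) for the 8 genes in controls and in *Bai1*tm2b/tm2b. *Mal* (1.31 and 1.97) and *Ncmap* (1.28 and 1.69) are highest, and *Sox10* is below 0 in both genotypes.

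The wider pathway moved in parts between the ages. Of the 14 other myelin proteins, 9 were called higher and 1 lower in controls, and 11 and 1 in *Bai1*tm2b/tm2b. *Gjb1*, the connexin of Schwann cell incisures, was called higher in controls by 2.27 ± 0.195 (adjusted p = 3.84e-07). *Pmp2*, a fatty acid carrier of peripheral myelin, was the 1 called lower (-2.09 ± 0.402, adjusted p = 0.000453). Of 9 regulators of the immature or repair state, 7 were called lower and 2 higher in controls. *Egr1*, *Sox2* and *Id2* were lower by -2.18 ± 0.137, -1.84 ± 0.158 and -1.83 ± 0.0905. *Jun*, a regulator of the repair state, was higher by 1.51 ± 0.102 (adjusted p = 5.22e-08).

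Of 9 regulators that promote myelination, 0 were called higher in controls and 5 lower, among them *Yap1* (-1.04 ± 0.0759) and *Wwtr1* (-1.38 ± 0.0719), coactivators of the Hippo pathway that other cell types also express. Of 9 ligands and receptors, 3 were called higher and 5 lower, with *Nrg1* at 2.76 ± 0.223 (adjusted p = 2.25e-07) and *Erbb3* at -0.95 ± 0.105 (adjusted p = 3.90e-06). *Drp2*, the periaxin partner in the Schwann cell membrane, was called higher by 2.34 ± 0.272 (adjusted p = 6.03e-06) and *Lama2* lower by -1.27 ± 0.146 (adjusted p = 5.23e-06). Of 7 neuropathy genes, 1 was called higher, *Ndrg1* (2.35 ± 0.221, adjusted p = 8.67e-07). Of 8 adhesion, node and basal lamina genes, 4 were called higher and 2 lower, and of 6 lipid enzymes 4 higher and 1 lower. Of 11 genes of immature and non-myelinating Schwann cells and satellite glia, 6 were higher and 2 lower. The counts in *Bai1*tm2b/tm2b differed by at most 2 in each list and direction.

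Summed levels of other cell types' markers differed between the ages as well. Summed neuron markers ranged from 1487 to 2967 CPM in P7 controls and from 14772 to 16769 CPM in P22 controls, with 10 of 10 genes called higher. Summed fibroblast and bone markers ranged from 6216 to 7909 CPM against 1566 to 2049 CPM, with 6 of 7 called lower. Supporting cell markers summed to 7571 to 9727 CPM against 1459 to 1640 CPM, with 5 of 7 called lower and 1 higher (*Gjb6*, a connexin gene, at 1.00). Oligodendrocyte genes summed to 252 to 309 CPM against 368 to 410 CPM, with 4 of 7 called higher and 2 lower (*Olig1* at -0.99 and *Olig2* at -1.96). None of the oligodendrocyte, neuron, fibroblast or supporting cell genes was at 0 in any of these libraries, and the part of these marker levels in the rises of the 8 genes was not tested.

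The genes also differed in how much they varied among pools of 1 group. The SD of log2 CPM around the group means was 0.59 for *Pmp22* and 0.61 for *Prx* at P7, against 0.03 and 0.10 at P22. *Mbp* had 0.44 and 0.16, and *Sox10* had 0.09 at both ages. Among the genes outside the 8 whose deviations were most like their mean, over 12 libraries, were *Gjb1*, *Aspa*, *Dhh*, *Elovl6*, *Ndrg1*, *Cldn19* and *Cnp*. The measure was Pearson's r of log2 CPM after subtracting group means, given as a description, and it ran from 0.981 for *Cnp* to 0.996 for *Gjb1*. The points share their libraries, and the P7 libraries carry most of this spread.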

How the data were processed

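RNA-seq of pooled cochlear tissue was analysed by genotype at P7 and P22. The authors made poly A libraries and processed the reads against mm10 in an nf-core workflow. STAR, Salmon and DESeq2 are named in the submitters' processing notes, with versions not given in the sources used here, nor whether counting used strand. The deposited values are expected counts (estimated counts per gene, not normalized) for P22 and for P7 replicates 5 to 7. For P7 replicates 1 to 4 the deposited values are a score without decimals, which their totals, nearly equal in all 8 libraries, mark as rounded TPM (the labels name counts). The share of exon bases of *Prx* that overlaps a gene on the other strand is 5.38%, and 0 for the other members.

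In R 4.3.3, counts were rounded, filtered with filterByExpr, scaled by TMM and compared by quasi-likelihood F tests in edgeR 4.0.16. DESeq2 1.42.0 was an alternative. TPM were kept at a mean of at least 5, scaled by TMM and tested with limma 3.58.1 on log2 values with a pseudocount of 1. P values were adjusted by the Benjamini-Hochberg method over all genes of a fit, and a call needed an adjusted p under 0.05, a log2 fold change over 0.5 and an SE under 0.5. Exact permutation tests were 2-sided. The steps were tested on simulated data. The members and gene lists were chosen with earlier results of these data known. Members are given in full. Of other lists, the genes named come from the called genes and the most abundant gene, with further genes (*Opalin*, *Erbb3*, *Sox2*, *Jun*, *Ermn*) named after their values were seen. Summed oligodendrocyte markers leave out *Mbp* and *Mag*. Some genes of the lists are not reported here. Melanocyte, macrophage and erythroid marker lists, also computed, had 0, 0 and 0 genes called at P22 with edgeR and 4, 3 and 0 of them at an unadjusted p under 0.05. Alternatives changed the filter, scaling, test, threshold, pseudocount and length trend, left out each library or blocked by replicate number.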

Additional observations from a re-analysis of the deposited data

Results flagged for a closer look

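The genotype difference of *Mbp* was apart in 1 of 3 pairs of sets, by a test added after the values were seen. It was 0.53 on the log2 scale at P22 and -0.45 in the P7 libraries in TPM, a gap of 0.97 (exact permutation p = 0.00143, adjusted p = 0.0343 over 24 tests). Every homozygous library was above every control at P22, and every one was below every control in the P7 TPM after TMM scaling. With the TPM as deposited, the gap was 0.86 and the exact permutation p, after adjustment, was 0.171. Against the P7 counts the gap was 0.79 (exact permutation p = 0.06, adjusted p = 0.274), and the fit over the 12 libraries in counts did not call the difference between ages (edgeR adjusted p = 0.447). Age, batch and unit cannot be told apart in the gap. The 7 summed oligodendrocyte genes had medians of 391 (control) and 721 (homozygous) CPM at P22, against 289 and 171 TPM in the P7 TPM and 268 and 336 CPM in the P7 counts, and their part in the gap was not tested. In the P7 TPM, a gap test for each gene and genotype (16 groups of 4) found no single library far from its group. This test cannot flag a group that splits into pairs, and the libraries in counts were not examined in this way.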

How the results depend on the processing

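The count of the 8 genes called at P22 was 1 in all alternatives except when homozygous replicate 2 was left out (range 0 to 1 over single libraries left out), where it was 0. The counts at P7 (0 in counts, 0 in TPM) and for the genotype difference between ages (0) held in every alternative run. The counts by age, in either direction, ranged from 3 to 6 in controls and from 6 to 7 in *Bai1*tm2b/tm2b. Signs turned for uncalled values only. In the P7 counts *Mbp* ranged from -0.43 to 0.053 over single libraries left out, and without both replicates 6 (chosen after seeing the data) the values were 0.22 for *Mbp*, 0.062 for *Mag*, 0.067 for *Prx*, 0.039 for *Egr2* and 0.014 for *Sox10*. The same omission gave -0.13 for *Prx*, -0.10 for *Egr2* and -0.080 for *Ncmap* in the difference between ages. In the P7 TPM, single omissions gave -0.14 to 0.20 for *Prx*, -0.059 to 0.22 for *Egr2* and -0.30 to 0.049 for *Ncmap*, and removal of a length trend gave -0.11 for *Prx*. For age in controls, *Mag* was at -0.21 with total counts and ranged from -0.064 to 0.23 over single omissions. The causes were not tested.

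Over all genes, the P22 count of 487 was 1904 on adjusted p alone, 270 without control replicate 1, 285 without control replicate 3 and 282 without homozygous replicate 2. The split of 269 higher and 218 lower became 399 and 134 with total counts. In the P7 TPM the count of 95 became 292 as deposited (283 higher and 9 lower, against 77 and 18), 958 on adjusted p alone and 0 with a lower minimum, no minimum, the length trend removed or the replicate block. Over single omissions it was 0 to 332, with 332 without homozygous replicate 1. In the P7 counts, 0 became 48 with DESeq2, and for the difference between ages 5 became 119 with DESeq2, 8 with no filter and 0 to 101 over single omissions. The main fits did not pair samples by replicate number. Same-numbered deviations had correlations of -0.23 to 0.07. Different numbers were not compared, so this cannot tell whether same-numbered pools shared a litter or a dissection. With the replicate block, *Mbp* at P22 was 0.53 (adjusted p = 0.00908), 466 genes were called there, and the counts for the 8 genes were 1, 0 and 0. Depth limits none of the 8 in counts, and the depth of the TPM is unknown.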
